A study of Mus musculus with 14 samples.

Results

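The guanylate-binding proteins (GBPs) and the immunity-related GTPases (IRGs) are 2 families of GTP-hydrolysing proteins that cells make in response to interferons. Members were taken by gene name: Gbp2, Gbp3, Gbp4, Gbp5, Gbp6, Gbp7, Igtp, Irgm1, Irgm2 and Ifi47. They are 10 of the 22598 genes listed for every library, with or without reads. All 10 passed the filter on low counts, so all are among the 11591 genes tested. RNA was sequenced from 14 libraries of mouse CD4+ T cells, sorted from spleen and driven in culture to the Th2 type, the helper T cell of allergy and worm infection. Day 7 of culture had 4 knockout and 4 wild-type libraries, and day 14 had 3 of each genotype. The knockout carried the genotype label Ago134, a combined loss of the Argonaute genes Ago1, Ago3 and Ago4, and both genotypes were of the C57BL/6J strain. Every group had been sorted as CD4+ TCRb+ cells and polarized in the same way, so each comparison is between Th2 cultures. The series text also gives the later time as day 15, and neither age nor sex of the mice is given in the sources used here.

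GBPs and IRGs gather on the membranes of vacuoles that hold bacteria or protozoa, and on bacteria in the cytosol, and break them open or mark them for other defences. Interferons induce them through short DNA motifs near their starts, among them the GAS sequence and the ISRE sequence, the second of which IRF1 can bind. Among the IRGs, Irgm1, Irgm2 and Igtp sit on the cell's own membranes and hold effector IRGs such as Ifi47 inactive there. In mice, Irgm1 is also known to protect CD4 T cells from death under interferon gamma.

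Total counts per library ran from 23326248 to 35803197, and 12534 to 13241 genes had a read. Ago1 had 0 reads in each knockout library of day 7 and 0 to 2 in those of day 14, against 128 to 141 in the wild-type libraries of day 7 and 67 to 100 in those of day 14. Ago3 had 39 to 69 reads in knockout libraries of day 7 and 74 to 159 in wild type, and Ago4 had 62 to 103 in knockout and 11 to 26 in wild type, so reads of Ago4, a gene in the knockout's label, were more numerous in knockout. At day 14 Ago4 had 79 to 161 reads in knockout and 10 to 91 in wild type. The sources do not say which exons were removed, so reads of Ago3 and Ago4 check nothing. The summed level of 10 T cell markers was 8501 to 12591 CPM (counts scaled to the library's total) in knockout cultures of day 7 and 6971 to 8382 CPM in their wild-type counterparts. For the later cultures it was 8617 to 10615 CPM in knockout and 7439 to 8577 CPM in wild type. From the lane labels and serial numbers in the identifiers of the deposited tables, 2 lane sets were inferred. A new set was begun where the lane number fell as the serial number rose, and the identifiers themselves name no sets. All day 7 knockout libraries, wild-type day 7 libraries 2 to 4 and wild-type day 14 library 2 are in the first set, and the other libraries, which include all knockout libraries of day 14, are in the second. The libraries of a group may come from separate mice or from one culture, so p-values measure the spread between samples, which may be technical.

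A pair of libraries stood apart for these genes before any test. Summed over the 10 members, knockout day 7 library 4 had 2045 CPM, while the other knockout libraries of day 7 had 840 to 1092 CPM. Wild-type day 14 library 3 had 1483 CPM, while libraries 1 and 2 of its group had 421 and 555 CPM. Member results that rest on either library are therefore in most cases given with and without it, a choice made after seeing the data. Many results of other genes are given with all libraries only.

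Most members have a match to an interferon response motif near a RefSeq start of the gene. These sequences are shown as the feature that the genes share outside their counts. In RefSeq (GRCm38.p6), 8 of the 10 members had 1 or more start regions of 250 bases before to 50 bases after the transcription start (9 regions). Both strands were searched for ISRE, written as GAAA, 2 bases of any kind and GAAA, and for GAS, written as TTC, 3 bases of any kind and GAA. The matches of the 2 motifs did not overlap each other. An ISRE match was found in 7 of the 8 genes, against 3.44% of all 32851 mouse start regions. GAS matched in 4 (Gbp5, Gbp7, Igtp and Irgm2), against 8.30% of all start regions, and those 4 held both, against 0.454% of all. The 120 bases before the start are printed for 4 members, 5′ to 3′ on the gene's strand, with motif matches in capitals:
Igtp: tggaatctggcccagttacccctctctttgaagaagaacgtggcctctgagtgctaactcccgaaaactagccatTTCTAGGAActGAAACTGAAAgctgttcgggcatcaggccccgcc
Irgm2: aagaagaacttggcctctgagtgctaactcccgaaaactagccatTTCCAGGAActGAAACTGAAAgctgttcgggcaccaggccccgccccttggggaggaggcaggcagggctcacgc
Gbp7: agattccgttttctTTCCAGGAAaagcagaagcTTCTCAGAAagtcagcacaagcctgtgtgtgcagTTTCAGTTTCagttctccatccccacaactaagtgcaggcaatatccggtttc
Ifi47: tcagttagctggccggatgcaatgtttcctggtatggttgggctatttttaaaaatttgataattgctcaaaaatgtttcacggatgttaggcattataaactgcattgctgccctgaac

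These stretches lie at chr11:58199436-58199555 (+ strand) for Igtp, chr11:58214857-58214976 (+) for Irgm2, chr3:142530216-142530335 (+) for Gbp7 and chr11:49076467-49076586 (+) for Ifi47. Igtp and Irgm2 share nearly the same block: 68 of 70 bases aligned on the GAS match were identical (97.1%), and the 2 start regions are separate places on the chromosome. RefSeq places the start of Irgm2 downstream of the first Irgm2 exon in the GENCODE annotation used for gene positions. In both, 2 bases lie between GAS and ISRE, as they do in the related IRG genes Tgtp1 and Tgtp2. The Ifi47 region held neither motif in these letters. For the other members with a match, whose RefSeq starts lie inside the GENCODE gene, 30 bases around the first ISRE are shown:
Gbp2: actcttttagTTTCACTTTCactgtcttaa
Gbp3: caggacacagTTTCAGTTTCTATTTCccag
Gbp5: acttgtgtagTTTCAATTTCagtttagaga
Irgm1: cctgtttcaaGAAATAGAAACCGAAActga

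They lie at chr3:142620594-142620623 (+) for Gbp2, chr3:142559989-142560018 (+) for Gbp3, chr3:142496759-142496788 (+) for Gbp5 and chr11:48871431-48871460 (− strand) for Irgm1. The stretches of Gbp5 and Irgm1 lie wholly inside the GENCODE gene, past its annotated start. Gbp3 and Irgm1 each hold a pair of overlapping ISRE matches in their capitals. In Irgm1, Igtp and Irgm2 the ISRE reads in the direction of the gene, while in the 4 GBPs of chromosome 3 it reads on the other strand.

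**Figure D1:**
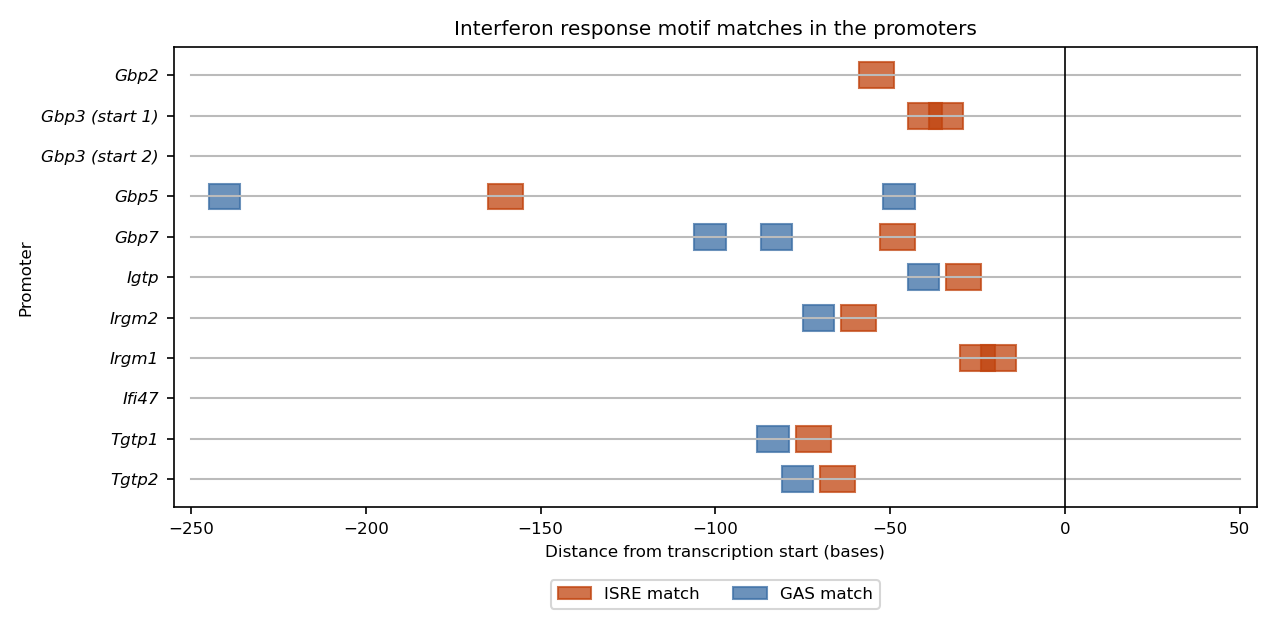
Motif matches in the start regions of members and of Tgtp1 and Tgtp2, by distance from the transcription start in bases (x axis), 1 line per start region; orange boxes are ISRE matches and blue boxes GAS matches. The 2 matches lie 2 bases apart in Igtp, Irgm2, Tgtp1 and Tgtp2, and the Ifi47 line is empty.

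The members sit in 4 clusters of the mouse genome (GRCm38, GENCODE annotation). Gbp5 (chr3:142493978-142522344), Gbp7 (chr3:142530342-142550149), Gbp3 (chr3:142560026-142573209) and Gbp2 (chr3:142620602-142638008) lie side by side on the + strand. Gbp4 (chr5:105115767-105139586) and Gbp6 (chr5:105270702-105293698) lie on the − strand of chromosome 5. Irgm1 (chr11:48861968-48871683, −) and Ifi47 (chr11:49076587-49096974, +) share one part of chromosome 11, and Igtp (chr11:58199556-58207591, +) and Irgm2 (chr11:58199618-58222782, +) another. Igtp and Irgm2 share 162 exon bases, Gbp6 shares 1726 exon bases with the predicted gene Gm43302, and Gbp7 shares 637 with a pseudogene. Gbp4 shares 61 exon bases with Gbp8 and 60 with Gbp9, and Ifi47 shares 111 with Olfr56. Whether the counting used strand is not stated, so reads in such shared bases, and reads that match close paralogs, could be split among genes, and values of these members are uncertain to that extent.

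Ifi47 and Igtp were the most abundant members in every library, and Gbp5 the least. Compared per length, as CPM per kilobase of the deposited gene width, the means over 14 libraries were 277.7 for Ifi47, 257.9 for Igtp, 72.1 for Irgm1, 38.7 for Gbp4, 23.7 for Gbp2, 15.5 for Gbp7, 12.7 for Irgm2, 3.65 for Gbp6, 2.57 for Gbp3 and 0.338 for Gbp5. Ifi47 was the highest in 10 of 14 libraries and Igtp in the other 4, so the order of these 2 was not fixed. Igtp was above Irgm1 in 14 of 14 libraries and Gbp3 above Gbp5 in 14 of 14. The neighbours between them changed places: Irgm1 was above Gbp4 in 11, Gbp4 above Gbp2 in 11, Gbp2 above Gbp7 in 10, Gbp7 above Irgm2 in 8 and Gbp6 above Gbp3 in 7 of 14 libraries. By mean CPM per kilobase, Ifi47 ranked 546 and Igtp 586 among the 11591 genes tested, while Gbp5 ranked 10869. Igtp and Ifi47 together made up 58.6% to 85.0% of the members' summed CPM per library. Ifng, the gene of interferon gamma itself, had at most 1 read in any library, and Ifnb1 at most 4.

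**Figure D2:**
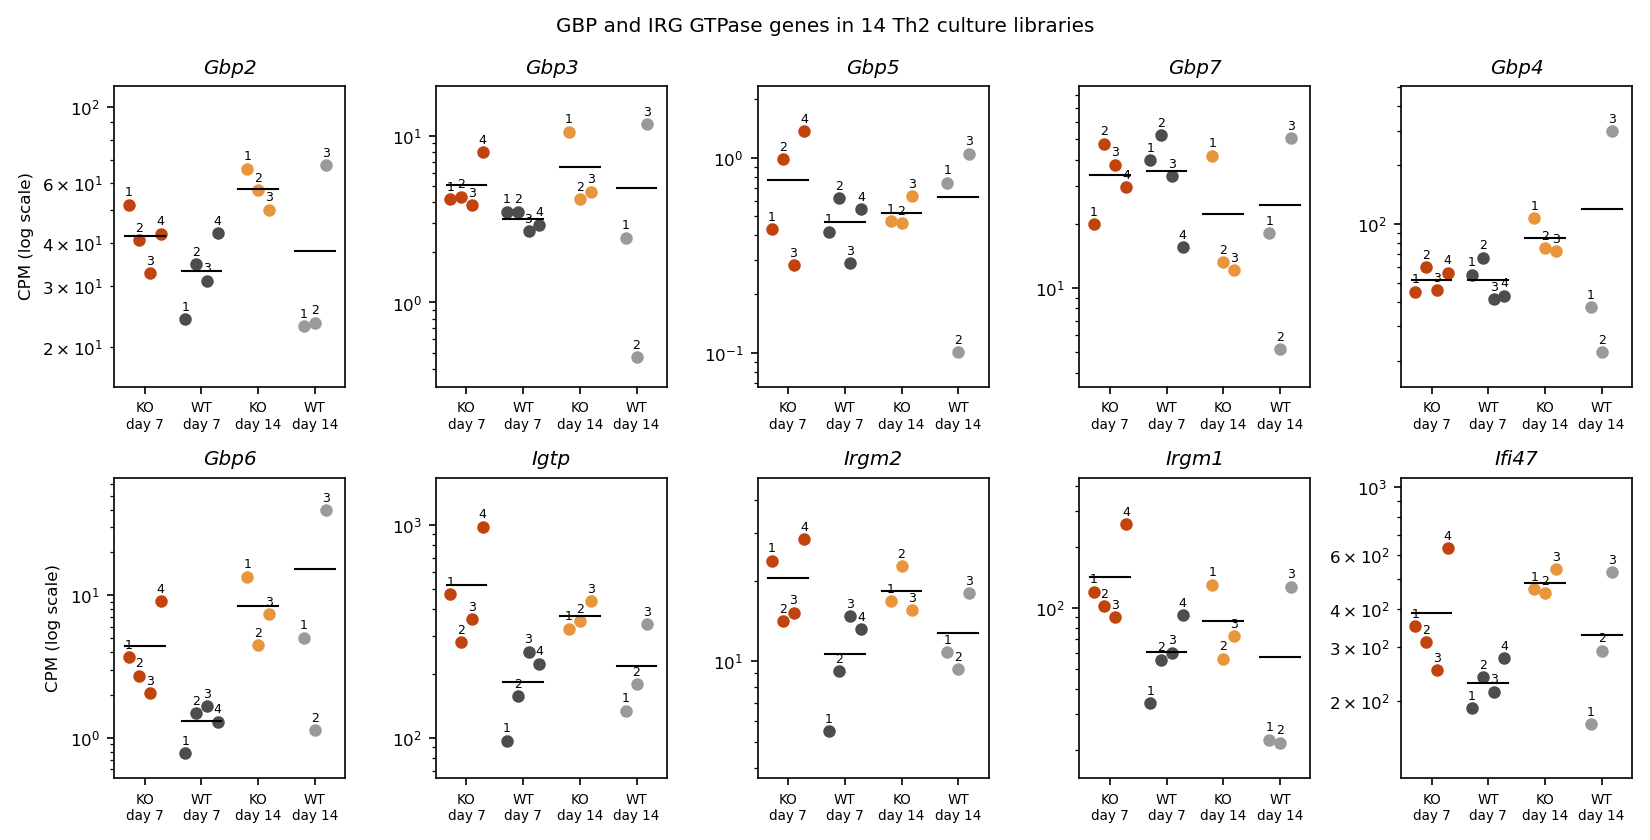
CPM of each member (log scale, y axis) in each library, in the order knockout (KO) and wild type (WT) at day 7, then KO and WT at day 14; points are libraries with their number and lines are group means. Knockout day 7 library 4 is the highest of its group for Igtp (979 CPM), Irgm1 (258 CPM) and Ifi47 (633 CPM), and wild-type day 14 library 3 is the highest of its group for Gbp4 (299 CPM).

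At day 7 the IRGs Igtp, Irgm1, Irgm2 and Ifi47 had higher means in knockout than in wild-type cultures, but no member passed the test over all genes. The question was whether loss of the 3 Argonautes changed the level of these genes in young Th2 cultures. With edgeR's quasi-likelihood test and Benjamini-Hochberg adjustment over all genes, 0 of 10 members were called at day 7, where 0.0949% of all genes were. At an unadjusted p under 0.05, 4 members were higher in knockout (Igtp, Irgm1, Irgm2 and Ifi47), where 11.4% of all genes were. The median log2 fold change of the members was 0.73, beside -0.01 for all genes tested, with 9 of 10 positive. Of the 9 members to which DESeq2 gave an adjusted p (all but Gbp5) it called 1 (Igtp, log2 fold change 1.54, adjusted p = 0.0224), where it called 4.94% of genes, and limma-voom with sample weights called 3 (Igtp, Irgm1 and Irgm2), where it called 43.5%.

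Igtp, which guards host membranes and is needed in mice against Toxoplasma, had 472, 282, 360 and 979 CPM in the knockout libraries of day 7, against 96.7, 157, 254 and 223 CPM in wild type. Every knockout library lay above every wild-type library, and library 4 was well above the other 3 knockout libraries. The log2 fold change was 1.52 ± 0.40 (SE; edgeR adjusted p = 0.154), and 1.05 ± 0.35 (adjusted p = 0.485) without knockout library 4. Irgm2, its neighbour with the near-identical start block, had 23.7, 14.1, 15.2 and 28.5 CPM in knockout. In wild type it had 5.49, 9.18, 14.7 and 13.2 CPM, and these ranges overlapped. Its log2 fold change was 0.94 ± 0.34 (edgeR adjusted p = 0.155), and 0.75 ± 0.35 (edgeR adjusted p = 0.485) without knockout library 4.

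Irgm1, the regulator tied to survival of CD4 T cells, had 120, 102, 89.9 and 258 CPM in knockout, against 33.9, 55.6, 60.2 and 91.8 CPM in wild type at day 7. One knockout library lay below the highest wild-type library. The log2 fold change was 1.24 ± 0.55 (edgeR adjusted p = 0.198), and 0.81 ± 0.56 without knockout library 4. Ifi47, an effector IRG, had 351, 312, 252 and 633 CPM in knockout and 190, 239, 215 and 276 CPM in wild type, with a log2 fold change of 0.75 ± 0.32 (edgeR adjusted p = 0.187) that was 0.43 ± 0.30 without that library.

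The GBPs spread more widely at day 7. Gbp6, one of the GBPs needed in mouse macrophages against Listeria and mycobacteria, had 3.70, 2.74, 2.07 and 9.12 CPM in knockout and 0.780, 1.5, 1.66 and 1.30 CPM in wild type. Its groups did not overlap, and its log2 fold change of 1.75 ± 0.82 was the highest of the 10 members (edgeR adjusted p = 0.215). Without knockout library 4 it was 1.13 ± 0.85. Gbp3 had 4.17, 4.32, 3.82 and 8.01 CPM in knockout and 3.51, 3.51, 2.68 and 2.93 CPM in wild type, again without overlap (0.68 ± 0.65, edgeR adjusted p = 0.534), on 97 to 181 reads per knockout library and 70 to 126 per wild-type library. Without knockout library 4 the change of Gbp3 was 0.39 ± 0.71. With Igtp, that made 3 members whose knockout libraries all lay above wild type at day 7, where 9.27% of all genes did.

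Gbp4 had nearly equal means at day 7, with 45.0, 59.97, 45.7 and 56.3 CPM in knockout and 55.02, 67.3, 41.3 and 43.0 CPM in wild type (log2 fold change 0.00 ± 0.57). Gbp2, which coats pathogen vacuoles in mouse cells, had 32.8 to 51.8 CPM in knockout and 24.0 to 42.9 CPM in wild type (0.34 ± 0.32, edgeR adjusted p = 0.528). Gbp7 ran from 19.8 to 47.4 CPM in knockout and from 15.5 to 52.1 CPM in wild type (-0.06 ± 0.59). Gbp5, known in mouse macrophages for promoting inflammasome assembly, stayed at 0.282 to 1.37 CPM in knockout and 0.287 to 0.618 CPM in wild type (0.71 ± 0.61, and 0.30 ± 0.64 without knockout library 4), on 9 to 31 reads per knockout library and 9 to 19 per wild-type library. For these 4 the libraries of both genotypes covered each other's ranges in large part.

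Within the first lane set alone, 4 knockout and 3 wild-type libraries of day 7, the knockout minus wild-type difference of mean log2 CPM was positive for 10 of 10 members, with a median of 0.63, beside 0.65 over all 8 libraries. It was 1.17 for Igtp, 0.94 for Irgm1, 0.69 for Irgm2, 0.59 for Ifi47 and 1.33 for Gbp6. Leaving out knockout library 4 lowered the median log2 fold change of the members to 0.41, with 0 called.

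**Figure D3:**
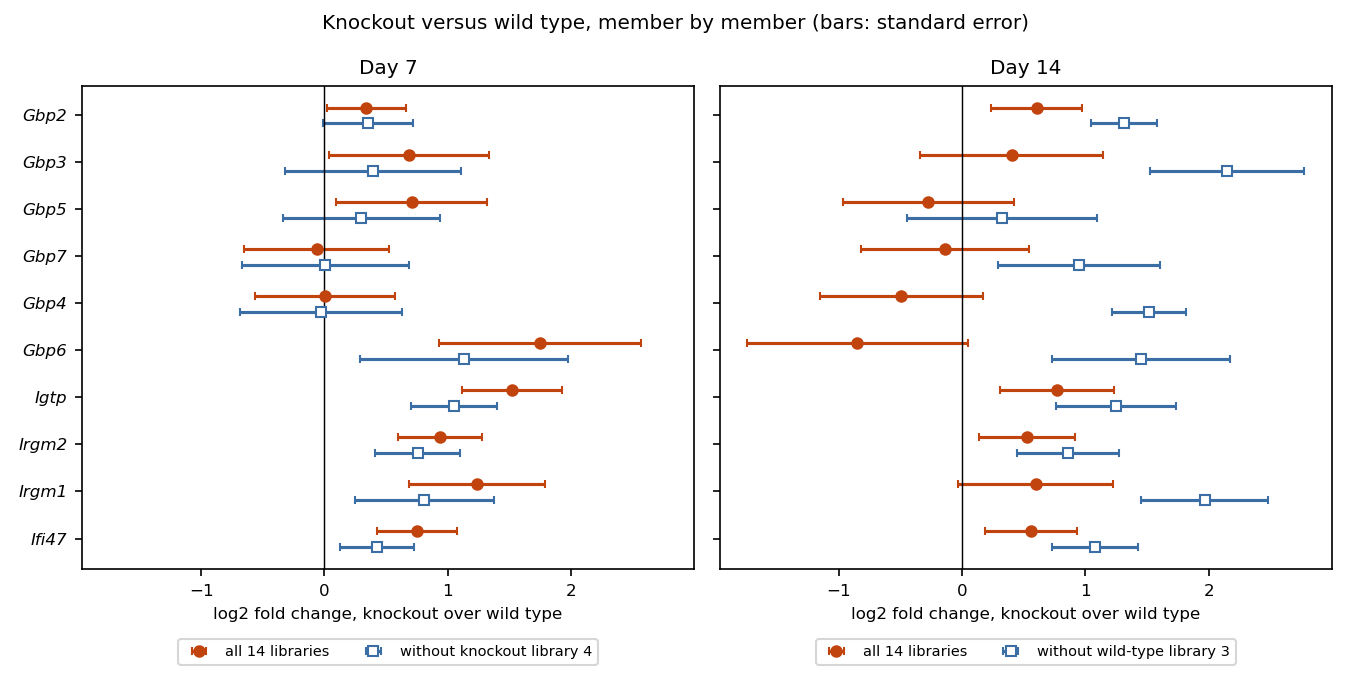
Log2 fold change of each member (x axis), knockout over wild type, at day 7 (left) and day 14 (right), with bars for the standard error; filled circles use all 14 libraries and open squares leave out the library named in each legend. Without wild-type library 3 of day 14 all 10 points lie above 0, and Gbp4 moves to 1.51.

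At day 14 the answer depended on 1 wild-type library. With all libraries, 0 of 10 members were called between knockout and wild type, where 1.42% of all genes were, and 0 had an unadjusted p under 0.05, where 21.7% did. DESeq2 called 0, where it called 7.87% of genes, and limma-voom with sample weights called 2 (Gbp2 and Ifi47), where it called 16.7%. The median log2 fold change of the members was 0.46, beside 0.01 for all genes, with 6 of 10 positive. The genotypes overlapped for every member, and wild-type library 3 lay within or above the knockout range for each of the 10.

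Gbp2 had 66.0, 57.1 and 50.1 CPM in knockout at day 14, against 22.9, 23.5 and 67.5 CPM in wild type (log2 fold change 0.60 ± 0.37, edgeR adjusted p = 0.352). Wild-type libraries 1 and 2 lay below every knockout library, and library 3 above every one. The same split held for Gbp4, with 107, 74.9 and 72.5 CPM in knockout and 37.5, 22.0 and 299 CPM in wild type (-0.49 ± 0.66), and for Gbp3, with 10.6, 4.15 and 4.61 CPM in knockout and 2.45, 0.468 and 11.7 CPM in wild type (0.40 ± 0.74). Gbp6 had 13.5, 4.45 and 7.39 CPM in knockout and 5.06, 1.14 and 39.5 CPM in wild type (-0.85 ± 0.89), so its negative sign came with 1 wild-type library at the top.

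Among the IRGs at day 14, Igtp had 325, 353 and 438 CPM in knockout and 134, 179 and 341 CPM in wild type (log2 fold change 0.77 ± 0.46, edgeR adjusted p = 0.341). Irgm2 had 16.7, 22.6 and 15.5 CPM in knockout, against 10.8, 9.35 and 17.96 CPM in wild type (0.52 ± 0.39). Irgm1 had 130, 56.3 and 72.8 CPM in knockout, against 22.5, 21.8 and 127 CPM in wild type (0.60 ± 0.63). Ifi47 had 465, 450 and 540 CPM in knockout and 168, 293 and 527 CPM in wild type (log2 fold change 0.56 ± 0.37, edgeR adjusted p = 0.390). In each of the 4, wild-type libraries 1 and 2 were below all 3 knockout libraries. Gbp5 (0.461 to 0.633 CPM in knockout, 0.100 to 1.05 CPM in wild type) and Gbp7 (12.1 to 41.7 CPM in knockout, 5.14 to 50.4 CPM in wild type) overlapped more widely.

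Without wild-type library 3, 5 members were called higher in knockout at day 14: Gbp2 (log2 fold change 1.31 ± 0.27, edgeR adjusted p = 0.00681), Gbp3 (2.15 ± 0.62, 0.0280), Gbp4 (1.51 ± 0.30, 0.00608), Irgm1 (1.96 ± 0.52, 0.0194) and Ifi47 (1.08 ± 0.35, 0.0422). In that fit 12.6% of all genes were called higher. The 7 members whose knockout libraries all lay above wild type were then Gbp2, Gbp3, Gbp4, Igtp, Irgm1, Irgm2 and Ifi47, where 24.9% of all genes did, and the median log2 fold change was 1.28. With knockout day 7 library 4 left out as well, Igtp joined these 5, where 14.1% of all genes were called higher. The direction of Gbp4 turned when wild-type library 3 was left out, and that of Gbp5, Gbp6 and Gbp7 did too, without a call. Leaving out other libraries moved the median to 0.15 (wild-type library 1), 0.03 (wild-type library 2) and 0.01 (knockout library 1), with 0 members called in each. Within the second lane set, which holds the 3 knockout libraries and wild-type libraries 1 and 3, the difference of mean log2 CPM was positive for 6 of 10 members, with a median of 0.25. Over all 6 libraries that difference was positive for 10 of 10, with a median of 0.64, while the fitted changes of Gbp4, Gbp5, Gbp6 and Gbp7 were negative.

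Whether the genotype difference changed between the days was tested as an interaction. By edgeR 0 of 10 members were called, where 0.0863% of all genes were, and 0 had an unadjusted p under 0.05, where 7.97% did; DESeq2, which called 1.29% of genes, and limma-voom with sample weights, which called 4.06%, called 0 members. The lowest adjusted p of the 10 was that of Gbp6 (-2.59 ± 1.21, edgeR adjusted p = 0.626). The interaction of Gbp4 was -0.49 ± 0.87 with all libraries and 1.51 ± 0.37 (edgeR adjusted p = 0.0452) without wild-type day 14 library 3, where 2.31% of all genes were called higher.

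Over time in wild type, 1 of 10 members was called, where 20.5% of all genes were. Gbp6 had 5.06, 1.14 and 39.5 CPM at day 14, against 0.780, 1.5, 1.66 and 1.30 CPM at day 7, with a log2 fold change of 3.54 ± 0.89 (edgeR adjusted p = 0.0112). The groups overlapped, since library 2 of day 14 lay within the day 7 range. Without library 3 of day 14 the change was 1.24 ± 0.65 (edgeR adjusted p = 0.160), and with the lane set as a term it was 2.16 (edgeR adjusted p = 0.327). Within the second lane set Gbp6 was 4.18 higher in mean log2 CPM at day 14 (2 libraries against 1), and within the first it was -0.38 (1 library against 3).

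The other members did not pass in wild type over time. The median log2 fold change was 0.35, from -0.52 for Gbp7 to 3.54 for Gbp6. Without library 3 of day 14, Gbp4 (-0.80 ± 0.28, edgeR adjusted p = 0.0476) and Irgm1 (-1.45 ± 0.49, edgeR adjusted p = 0.0399) were called lower at day 14, where 15.7% of all genes were. With all libraries Gbp4 had the opposite sign (1.21 ± 0.61). Without library 2, Gbp4 was called higher (1.703) beside Gbp6 (4.09), where 11.6% of all genes were. With the trends over GC content and width removed, the same 2 were called higher, where 14.3% of all genes were. Other fits called 0 members in wild type: edgeR on the compared libraries alone (18% of all genes called), edgeR with the lane set as a term (18.5%), and limma-voom with (39.5%) and without (20.8%) sample weights.

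Over time in knockout, 0 of 10 members were called, where 15.5% of all genes were, and 0 had an unadjusted p under 0.05, where 27.1% did. DESeq2, which called 17.8% of genes, and limma-voom with sample weights, which called 23.3%, called 0 members. The median log2 fold change was 0.08. Gbp4 had 107, 74.9 and 72.5 CPM at day 14, against 45.0, 59.97, 45.7 and 56.3 CPM at day 7, and was the only member without overlap (0.72 ± 0.61, edgeR adjusted p = 0.518), where 13.6% of all genes were higher without overlap. Without knockout day 7 library 4, Gbp4, Gbp6 and Ifi47 were higher at day 14 without overlap, where 18.5% of all genes were. Gbp4 was called (0.71 ± 0.24, edgeR adjusted p = 0.0488) in the fit without wild-type day 14 library 3, where 13.1% of all genes were called higher, and Ifi47 was called without both libraries, where 13.7% were. Igtp and Irgm1 had negative changes that did not pass (-0.49 ± 0.43 and -0.72 ± 0.60), and these were -0.02 ± 0.38 and -0.28 ± 0.61 without knockout day 7 library 4. All knockout libraries of day 7 are in the first lane set and all of day 14 in the second, and with the lane set as a term the median of the members was -0.74.

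How far the members varied together across libraries differed from pair to pair. Pearson's r of log2(CPM + 0.5) over the 14 libraries, which share groups and lane sets and so describe these libraries only, was 0.93 between Igtp and Irgm2, whose exons overlap, 0.82 between Igtp and Irgm1, 0.82 between Igtp and Ifi47, and 0.84 between Gbp3 and Gbp4. Gbp7 had an r of 0.01 with Igtp, -0.02 with Irgm2 and -0.06 with Ifi47, and 0.66 with Gbp3, its neighbour on chromosome 3. Gbp4 had 0.26 with Igtp and 0.29 with Irgm2, and Gbp5 had 0.38 with Irgm2 and 0.39 with Gbp2. Wild-type day 14 library 2 was the lowest of the 14 for Gbp3 (0.468 CPM), Gbp4 (22.0 CPM), Gbp5 (0.100 CPM), Gbp7 (5.14 CPM) and Irgm1 (21.8 CPM). Its Ifi47 level of 293 CPM lay above every wild-type library of day 7 and below every knockout library of day 14.

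Of the tested genes outside the list, 6 followed the members' mean most closely: Setd5 (r = 0.96), Trim21 (0.95), Hspa5 (0.94), Parp9 (0.94), Herc6 (0.93) and Tstd3 (0.92), over 14 libraries. Predicted genes, unnamed clones and genes without a symbol were left out of this ranking. Trim21 is an antibody receptor in the cytosol, Parp9 and Herc6 are known as interferon-stimulated, Hspa5 is the chaperone of the endoplasmic reticulum and Setd5 a chromatin protein. Herc6 had 24.8 to 66.7 CPM in knockout and 16.7 to 21.3 CPM in wild type at day 7 (log2 fold change 1.01 ± 0.43, edgeR adjusted p = 0.183). Hspa5 ran from 680 to 835 CPM in knockout and from 247 to 1395 CPM in wild type at day 14. None of the 6 passed the test between genotypes on either day, where the lowest edgeR adjusted p was 0.183.

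**Figure D4:**
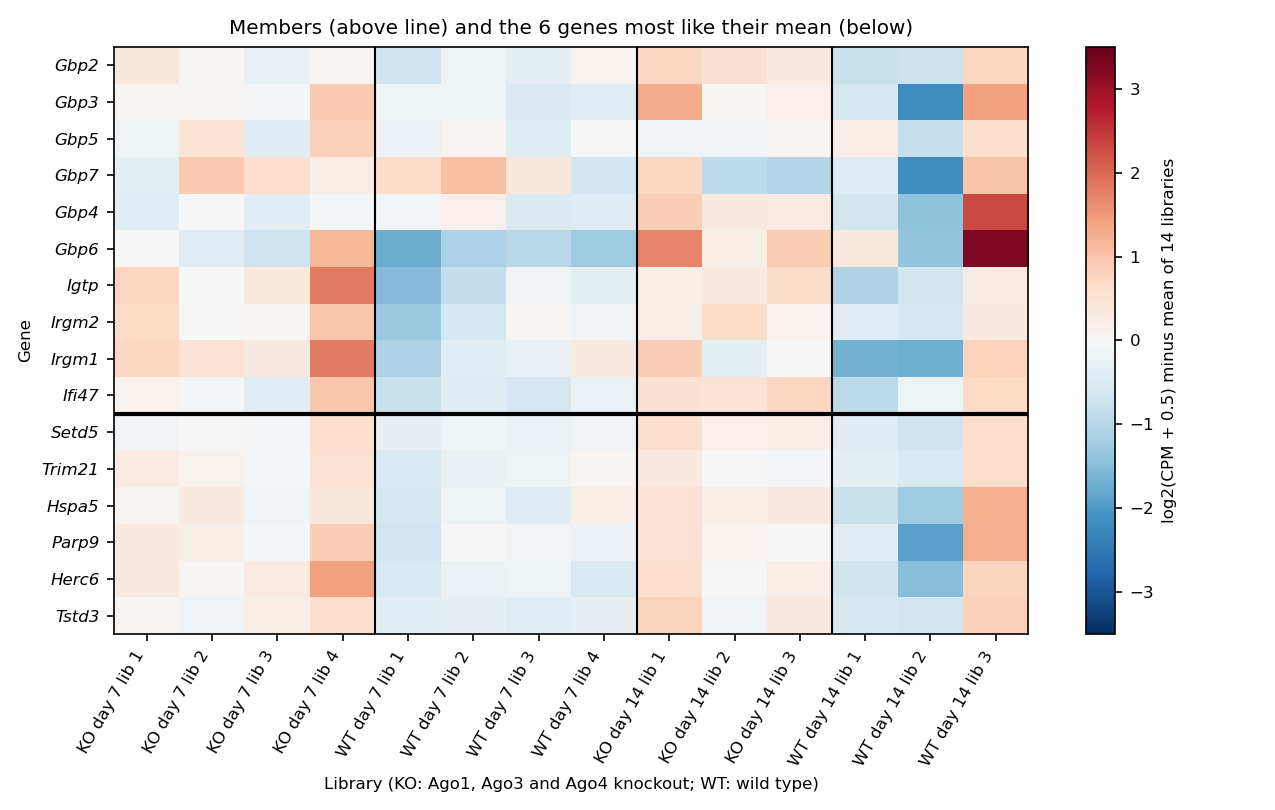
Heat map of log2(CPM + 0.5) minus its mean over 14 libraries (colour) for each member and for the 6 genes most like their mean (rows), by library (columns: KO day 7, WT day 7, KO day 14, WT day 14). Wild-type day 14 library 3 is red throughout, with Gbp6 at 3.23, while library 2 of the same group is mostly blue.

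The rest of the interferon response gave the following counts. For comparison, edgeR called 0.0949% of all genes between genotypes at day 7 and 1.42% at day 14, and DESeq2 4.94% and 7.87%. At an unadjusted p under 0.05, 11.4% of all genes were higher in knockout at day 7, and 21.7% differed at day 14. Over time edgeR called 20.5% in wild type and 15.5% in knockout. Of 15 other GBP, IRG and related giant GTPase genes on a list, 10 were tested. At day 7, 0 were called between genotypes, with a median log2 fold change of 1.43, from -1.37 to 5.83. Without knockout library 4 the 10 changes were -1.25 (Irgq), -0.17 (Gbp8), 0.15 (Gbp9), 0.25 (Gbp11), 0.30 (Irgc1), 1.13 (Tgtp1), 1.29 (Gbp10), 1.40 (Tgtp2), 1.67 (Gm4951) and 2.96 (Iigp1). At day 14, 1 was called higher in knockout, Irgc1, an IRG known from testis. It had 0.768, 0.330 and 0.452 CPM in knockout and 0.0744, 0.0668 and 0.0309 CPM in wild type (log2 fold change 3.11 ± 0.50, edgeR adjusted p = 0.00864). The lowest of these values, in wild-type library 3, was 1 read, so this call is limited by depth. Over time Irgc1 fell in both genotypes (log2 fold change -2.78 in knockout and -5.68 in wild type), and Gbp11 rose in both (2.63 ± 0.79, edgeR adjusted p = 0.0373 in knockout; 4.81 ± 0.85, edgeR adjusted p = 0.00125 in wild type). Gbp11 lies in the same family as Gbp6 and stood at 69.0 CPM in wild-type day 14 library 3, while libraries 1 and 2 had 4.61 and 4.98 CPM. The most abundant genes of that list, Gbp9 and Gbp8, had 14.7 to 31.3 and 6.84 to 18.9 CPM in knockout and 12.8 to 16.5 and 9.36 to 22.1 CPM in wild type at day 7.

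Effector IRGs outside the member list had positive changes at day 7 that did not pass the test. Tgtp1, whose start region holds the same 2-base spacing of motifs, had 5.29, 2.16, 3.35 and 21.3 CPM in knockout and 0.640, 1.56, 2.94 and 1.55 CPM in wild type (log2 fold change 2.26 ± 0.78, edgeR adjusted p = 0.154). Its near-identical copy Tgtp2 had 2.61 ± 0.83, and reads could be split between the copies. As for Igtp, knockout library 4 was the highest of its group for Tgtp1, and without it the change was 1.13 ± 0.66 for Tgtp1 and 1.40 ± 0.70 for Tgtp2.

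Upstream of the members, Irf1, which binds the ISRE, had 110 to 146 CPM in knockout and 81.3 to 118 CPM in wild type at day 7 (log2 fold change 0.33 ± 0.19). The receptor chain Ifngr1 had 821 to 866 CPM in knockout and 718 to 1084 CPM in wild type at day 7 (0.02 ± 0.19), and 860 to 1531 CPM against 587 to 631 CPM at day 14 (0.87 ± 0.22, edgeR adjusted p = 0.0615). Its partner Ifngr2 had 0.00 ± 0.17 at day 7 and -0.12 ± 0.20 at day 14. In all, 0 of 14 tested signalling genes were called between genotypes on either day by edgeR (median 0.06 at day 7 and -0.02 at day 14). At an unadjusted p under 0.05 there were 4 higher and 1 lower at day 7 and 3 higher and 2 lower at day 14, and DESeq2 called 1 higher at day 7 and 1 in each direction at day 14.

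Over time the signalling list had calls in both genotypes. Irf8, a partner of IRF1, rose in knockout (2.83 ± 0.37, edgeR adjusted p = 0.000188) and in wild type (2.37 ± 0.36, edgeR adjusted p = 0.000423). Jak1, a kinase of interferon receptors, fell in wild type (-1.54 ± 0.41, edgeR adjusted p = 0.0168). Of the 8 feedback genes, Socs1, an inhibitor of JAK kinases, rose in knockout to 387, 1121 and 1310 CPM, against 107, 69.9, 105 and 181 CPM at day 7 (3.02 ± 0.38, edgeR adjusted p = 0.000179), and in wild type to 596, 739 and 1082 CPM, against 75.8, 72.0, 87.5 and 70.6 CPM (3.40 ± 0.39, edgeR adjusted p = 4.57e-05). Socs3 rose in both as well (3.14 ± 0.36 in knockout and 3.72 ± 0.36 in wild type). Between genotypes 0 of the 8 were called by edgeR on either day, with 2 at an unadjusted p under 0.05 on each, while DESeq2 called 2 higher at day 7 and 1 lower at day 14.

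Type I interferon-stimulated genes had positive changes throughout at day 7, without a call. Of 25 tested, 0 were called by edgeR, and 20 were higher in knockout at an unadjusted p under 0.05, where 11.4% of all genes were. All 25 log2 fold changes were positive, with a median of 2.39. Without knockout library 4 the median was 1.52. DESeq2 called 17 of the 24 it tested, where it called 4.94% of all genes. The most abundant, Ifi35 and Bst2, had 229 to 845 and 78.4 to 557 CPM in knockout and 139 to 266 and 33.9 to 90.8 CPM in wild type. At day 14 their median was 0.88, with 0 called.

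Of 13 genes of MHC class I and antigen processing, 0 were called between genotypes on either day, with a median of 0.70 at day 7 and 0.02 at day 14. Without knockout day 7 library 4 the day 7 median was 0.49. With all libraries, 8 were higher in knockout at day 7 at an unadjusted p under 0.05 (11.4% of all genes were). At day 14, 0 differed at that p (21.7% of all genes did). DESeq2 called 4 and 0, where it called 4.94% and 7.87% of all genes. In wild type 6 rose over time, among them H2-K1 (1.34 ± 0.29, edgeR adjusted p = 0.00450) and H2-D1 (1.08 ± 0.25, edgeR adjusted p = 0.00677), which present peptides to CD8 T cells and have close copies that could share reads. Among 11 tested genes of the ATG and LC3 machinery that guides GBPs and IRGs to vacuoles, 0 were called between genotypes by edgeR, with medians of 0.20 and 0.07, and DESeq2 called 0 at day 7 and 2 at day 14. Gabarapl1 (1.19 ± 0.29, edgeR adjusted p = 0.00863) and Gabarap (0.55 ± 0.17, edgeR adjusted p = 0.0328), both of the LC3 family, rose over time in wild type. Of 6 tested inflammasome genes 0 were called between genotypes, while 3 rose over time in wild type (Nlrp3, Aim2 and Casp4).

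Markers of other cells were measured beside the members. The summed level of 12 myeloid and dendritic cell markers was 8.24 to 15.3 CPM in knockout and 2.12 to 4.43 CPM in wild type at day 7, and 17.3 to 28.2 CPM in knockout and 8.74 to 30.6 CPM in wild type at day 14. The knockout libraries of day 7 lay above wild type in this sum, as they did for Igtp. Of those 12 markers, Itgam, Itgax, Flt3 and Xcr1 were at 0 in every library. The sum of 6 NK cell markers was 1.15 to 2.64 CPM in knockout and 2.97 to 6.48 CPM in wild type at day 7, and 10.8 to 40.4 against 22.4 to 42.1 CPM at day 14, with Ncr1 and Klra8 at 0 throughout. Nearly all of that sum was Eomes, which T cells also make: the other 5 averaged at most 0.0158 CPM each. The sum of 6 mast cell markers was 47.6 to 82.3 CPM in knockout and 31.0 to 65.1 CPM in wild type at day 7, and 22.5 to 129.8 against 1.17 to 5.69 CPM at day 14, with Mcpt4 and Ms4a2 at 0 throughout. Of the 3 mast cell markers tested, Kit (log2 fold change 6.63 ± 1.11, edgeR adjusted p = 0.0115) and Cpa3 (3.80 ± 0.77, edgeR adjusted p = 0.027) were called higher in knockout at day 14. The third had a log2 fold change of -3.17 there and was not called. At day 7, 2 of the 3 were lower in knockout at an unadjusted p under 0.05, where 1398 of 11591 genes were. The median of the 3 was then -1.60. Of the 5 myeloid and dendritic cell markers tested, Mgl2 was called higher in knockout at day 7 (2.28 ± 0.37, edgeR adjusted p = 0.0249) and at day 14 (2.45 ± 0.46, edgeR adjusted p = 0.0186). All 5 changes were positive at day 7. At day 14, 3 were positive and 2 negative, with a median of 0.36 and a lowest value of -2.51. The 6 B cell markers summed to at most 4.21 CPM in any library, and 6 Th1 markers to 138 to 290 CPM in knockout and 157 to 346 CPM in wild type at day 7. In bulk RNA, fewer cells of a type and less RNA per cell cannot be told apart, and the part of these cells in the members' levels was not tested.

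The day 7 genotypes also differed in a trend of level over gene width. Each gene's mean over all libraries was subtracted from its log2 CPM before the slope over width was fitted. A slope is thus relative to the average of the libraries. Per doubling of width, it was -0.33 to 0.02 in knockout and 0.06 to 0.25 in wild type at day 7, without overlap. With the trend over width removed, 10 of 10 members had positive changes at day 7, 5 of them at an unadjusted p under 0.05 (4.96% of all genes were higher at that p), and 0 were called (0.0863% of all genes). With the trends over GC content and width removed, 10 of 10 were positive, 6 at an unadjusted p under 0.05 (7.95% of all genes), and 0 were called (0.149%).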

How the data were processed

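Bulk RNA of the 14 cultures was sequenced from both ends. The submitters' processing notes name GSNAP 2013-11-01 and the GRCm38 build. For the counting tool, its annotation and its use of strand: not given in the sources used here. The authors deposited 1 table per library with whole-number read counts per gene, a gene width and RPKM values, per the file headers. The deposited RPKM values were read only to describe the libraries, and all tests used the counts. Symbols were found for 22457 of 22598 Ensembl identifiers.

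Genes kept by filterByExpr (11591) were scaled by TMM and fitted in edgeR 4.0.16 (R 4.3.3) with the robust quasi-likelihood model, 1 mean per group over 14 libraries. A gene was called at a Benjamini-Hochberg adjusted p under 0.05. SE is the log2 fold change over the root of F. CPM use TMM-scaled totals. Alternatives were DESeq2 1.42.0, limma 3.58.1 (voom), other scalings and filters, a replicate block, a lane-set term, trend removal and leaving out libraries.

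Named genes are the 10 members, Ifng, Ifngr1, Ifngr2, Irf1 and Socs1, the called (up to 4) and most abundant genes of each list, and the 6 genes most like the members' mean; a few others, such as Tgtp1, were chosen after their values were seen. One gene of that rule is not reported here, and not every called or abundant gene of the other lists is named. Members and lists were chosen with earlier results of these data known. Numbers of the replicates were not used to pair samples in the main fit. Among the members, counting error is largest for Gbp5, Gbp3 and Gbp6, with as few as 3, 14 and 28 reads in a library.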

Additional observations from a re-analysis of the deposited data

Results flagged for a closer look

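In the knockout group of day 7, library 4 had 8.01 CPM of Gbp3, far above the other 3 libraries (3.82 to 4.32 CPM): the gap to the nearest library was 0.88 of the group's range. This was 1 flag among 20 tests of single libraries (10 members in 2 groups of 4), and chance alone flags about 1 in 20. The same library was the highest of its group for Igtp, Irgm1, Irgm2 and Ifi47, by less than that criterion.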

How the results depend on the processing

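Calls of single members rested on the settings. At day 7, between knockout and wild type, DESeq2 called 1 member (4.94% of all genes) and limma-voom with sample weights 3 (43.5% of all genes). Leaving out each library in turn gave 0 throughout and a median log2 fold change of 0.41 to 0.95. At day 14 limma-voom with sample weights called 2 (median 1.13), where it called 16.7% of all genes. Leaving out each library in turn gave 0 to 5 (median 0.0092 to 1.28). The 5 came without wild-type library 3, where 12.6% of all genes were called higher. Leaving out knockout day 7 library 4 and wild-type day 14 library 3 together, chosen after seeing the data, gave 6 (median 1.28). In that fit 14.1% of all genes were called higher. Gbp4 turned to 1.51 at day 14 without wild-type library 3, alone or with the other library, and ran from -0.99 to 1.51 with each library left out; its interaction likewise ran from -0.99 to 1.51, and its change over time in wild type from -0.80 to 1.703. For the interaction, the median was 0.58 with limma-voom with sample weights and 0.81 without both libraries. With each library left out it was -0.85 to 0.53 (0 to 1 called). The 1 call came without wild-type day 14 library 3, where 2.31% of all genes were called higher. In wild type over time, 0 members were called with the compared libraries alone, with the lane-set term, and with limma-voom with (median -0.23) or without sample weights; removing the trends over GC content and width, chosen after seeing the data, gave 2 (14.3% of all genes were called higher). Without both libraries the median was -0.37, and with each library left out 1 to 2 were called (median -0.37 to 0.52). The 2 were called higher without day 14 library 2 (11.6% of all genes) and lower without day 14 library 3 (15.7%). In knockout over time the median was -0.74 with the lane-set term. There 1 was called without both libraries, where 13.7% of all genes were called higher. With each library left out 0 to 1 were called (median -0.16 to 0.24). The 1 call came without wild-type day 14 library 3, where 13.1% of all genes were called higher. The cause of these shifts was not tested.

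Samples of different groups with the same replicate number correlated from -0.58 to 0.61 in their deviations from group means. Samples with different numbers were not correlated for comparison, so this range cannot decide whether the numbers pair the samples. With the replicate number as a block, the calls stayed at 0, 0, 0, 1 and 0 in the 5 comparisons, and the median at day 7 was 0.65. Gbp5, on 3 to 34 reads per library, is limited by depth, as are Gbp3 and Gbp6 in their lowest libraries (14 and 28 reads).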
